A study of Mus musculus with 8 samples.

Results

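The transcription factors that build the gonad before it takes a male or female course were followed in mouse gonads with and without Kdm6b, the gene of a demethylase that takes repressive methyl marks off histone H3. The genes were chosen by name: Gata4, Zfpm2, Wt1, Nr5a1, Lhx9, Emx2, Cited2 and Six4, which are 8 of the 48440 genes listed. All 8 were found, and all 8 passed the filter on low values in XY and in XX gonads. Whole gonads of mouse embryos at embryonic day 11.5 were used, with 2 pairs of gonads pooled into each library. The groups were XY Kdm6b-null, XY wild type, XX Kdm6b-null and XX wild type, with 2 libraries in each. The growth protocol in the labels counts 4 samples where 8 are listed, so what n = 2 stands for rests on the list. Which stretch of Kdm6b the null allele lacks, the strain and the litters behind the pools are not given in the sources at hand, so p-values measure the spread between these pools only. The labels call the XY samples pre-Sertoli and the XX samples pre-granulosa, but they describe no sorting of cells. Sry, the male-determining gene that pre-Sertoli cells express, had 19.5 and 6.18 normalized counts in the XY Kdm6b-null libraries and 57.4 and 73.8 in the XY wild type libraries, and it was listed at 0 in all 4 XX libraries.

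The early gonad arises as a thickening of the coelomic epithelium on the mesonephros, and the same ridge gives rise to the adrenal cortex. WT1, EMX2 and LHX9 are needed for that epithelium to grow, and NR5A1, the nuclear receptor that makes a cell steroidogenic, is needed for both gonad and adrenal. CITED2 has no DNA-binding domain of its own and acts with WT1 to raise Nr5a1, and LHX9 likewise activates Nr5a1 with WT1. SIX4 acts upstream of Zfpm2 and Nr5a1. GATA4 and its cofactor FOG2, the product of Zfpm2, are then needed with WT1 for Sry to be switched on in XY gonads.

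Counts on genes ran to between 19107103 and 19828638 per library. A normalized count is a count divided by the size factor of its library, and the XY and the XX libraries were scaled in 2 separate tables. Levels of XY and XX gonads are therefore set side by side without a test. The XX wild type libraries differed most from each other, their log2 values correlating at 0.963, while the other 3 pairs correlated at 0.980 to 0.985. Kdm6b was lower in every Kdm6b-null library than in either wild type library of the same sex. It had 1238 and 1037 normalized counts in XY Kdm6b-null libraries and 3399 and 3181 in XY wild type libraries. In XX it had 1249 and 1125 in Kdm6b-null libraries and 2218 and 2796 in wild type libraries. The null mean was 34.6% of the wild type mean in XY and 47.4% in XX. Transcript thus remained, and these counts alone do not establish the genotype.

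In XY gonads without Kdm6b, Lhx9, Nr5a1 and Gata4 were lower in both libraries than in either wild type library, at 51.3%, 57.4% and 62.2% of the wild type mean, while the other 5 factors overlapped between the genotypes. Of all genes tested in XY gonads, 16.3% were lower in this way. In XX gonads without Kdm6b, Emx2, Cited2, Wt1 and Gata4 were higher in both libraries than in either wild type library, at 151%, 150.4%, 122% and 123% of the wild type mean. Of all genes tested in XX gonads, 27% were higher in this way, and 49.5% did not overlap in either direction. The limma test on log2 values, adjusted over all genes tested, called 0 of the 8 factors and 0% of all genes in either sex. Kdm6b itself was thus not called by limma. In the authors' deposited DESeq2 table Kdm6b had adjusted p = 8.2e-25 in XY gonads and 7.1e-07 in XX gonads. A factor that limma did not call is therefore not shown to be unchanged. The authors' deposited table of DESeq2 results, adjusted over its own genes, called Lhx9 as lower in XY gonads, where it called 0.402% of its genes, and Emx2 and Cited2 as higher in XX gonads, where it called 2.77%.

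**Figure D1:**
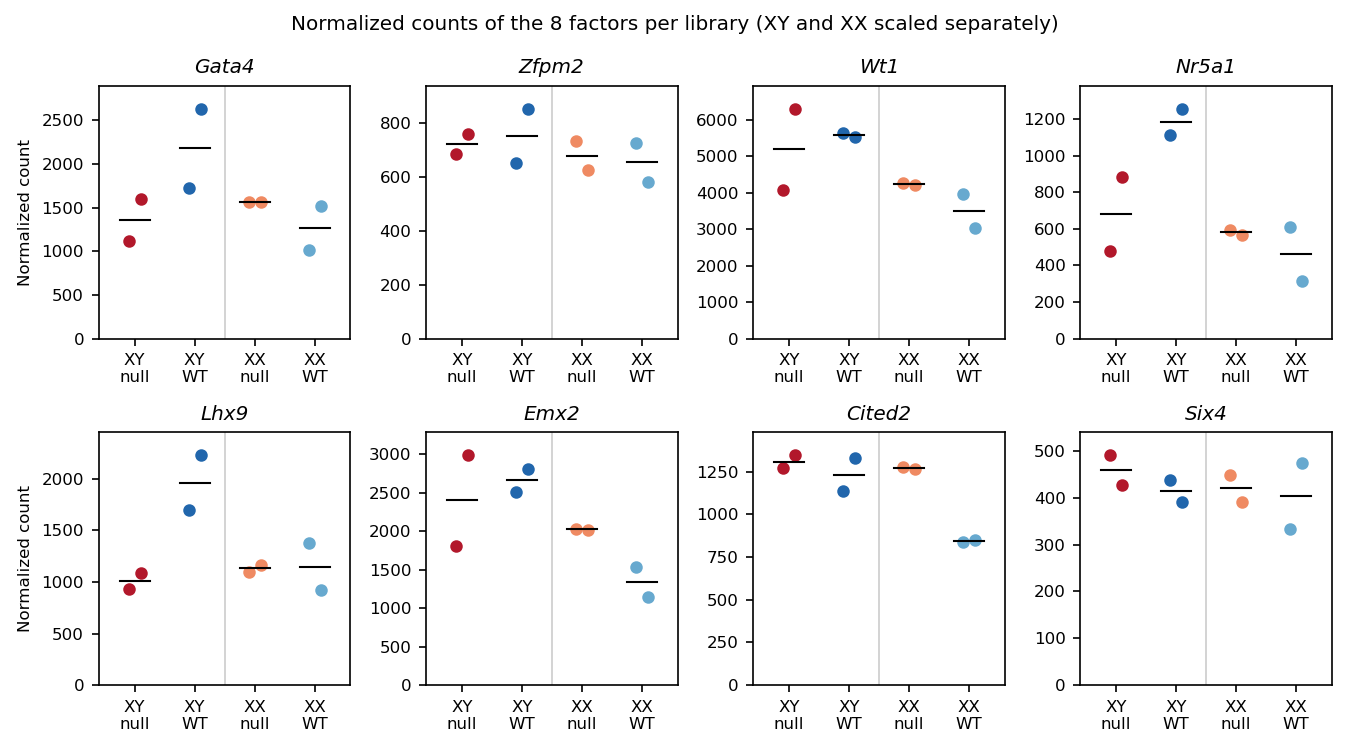
Normalized count (vertical axis, from 0) of each factor in each of the 8 libraries, as points, with the group mean as a line; Kdm6b-null stands left of wild type (WT) in each sex. Lhx9, Nr5a1 and Gata4 separate by genotype in XY gonads with the null libraries lower, and Emx2, Cited2, Wt1 and Gata4 separate in XX gonads with the null libraries higher.

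The start-site regions of the 3 factors called in the authors' deposited tables are printed here. The factors are Lhx9, called in XY gonads, and Emx2 and Cited2, called in XX gonads, and they were chosen after the calls were seen. Each region runs from 250 bases before the start site to 50 bases from it, as RefSeq gives it on GRCm38.p6, read 5′ to 3′ on the strand of the gene. Of the 8 factors, Lhx9, Emx2, Cited2 and Six4 were matched by symbol. The plan was to print the factors with the largest fall in XY gonads, but no region was matched for Nr5a1 or Gata4. The Lhx9 region is chr1:138842395-138842694 on the minus strand, and its start site lies 6133 bases inside the listed start of the gene. The Emx2 region is chr19:59458440-59458739 on the plus strand, with its start site 318 bases inside the listed start. The Cited2 region is chr10:17722978-17723277 on the plus strand, and its start site is the listed start. Capitals mark words that were searched for on both strands.
Lhx9: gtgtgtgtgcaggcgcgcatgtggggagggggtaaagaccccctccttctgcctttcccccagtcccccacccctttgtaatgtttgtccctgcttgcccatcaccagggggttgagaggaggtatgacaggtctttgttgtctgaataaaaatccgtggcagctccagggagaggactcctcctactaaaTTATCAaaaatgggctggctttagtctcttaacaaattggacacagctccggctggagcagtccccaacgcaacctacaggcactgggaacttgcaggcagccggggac
Emx2: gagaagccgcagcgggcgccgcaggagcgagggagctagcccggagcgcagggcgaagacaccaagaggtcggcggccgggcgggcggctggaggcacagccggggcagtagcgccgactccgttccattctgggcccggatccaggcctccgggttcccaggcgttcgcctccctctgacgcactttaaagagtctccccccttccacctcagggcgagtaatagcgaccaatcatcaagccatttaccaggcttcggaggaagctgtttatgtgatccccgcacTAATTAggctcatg
Cited2: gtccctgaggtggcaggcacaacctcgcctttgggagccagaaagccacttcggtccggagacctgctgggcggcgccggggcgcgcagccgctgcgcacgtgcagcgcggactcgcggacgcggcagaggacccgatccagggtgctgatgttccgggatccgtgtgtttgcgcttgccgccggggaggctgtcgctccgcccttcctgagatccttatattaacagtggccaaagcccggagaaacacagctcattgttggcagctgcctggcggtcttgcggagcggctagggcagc
The words were AAGGTCA for NR5A1, AGATAA as well as AGATAG and likewise TGATAA as well as TGATAG for GATA factors, TAATTA for LHX9 and EMX2, GCGNGGGCG for WT1 and TGACACC for SIX4. The Lhx9 region holds 1 GATA word, TTATCA as read on the strand of the gene, that begins 59 bases before the start site. GATA words occur in 29.8% of the 32851 RefSeq start-site regions. The Emx2 region holds TAATTA from base 37 on, a word found in 5.29% of all regions. The Cited2 region holds none of the words, and of the 2 Six4 regions 1 holds a GATA word. The words for NR5A1, WT1 and SIX4, in 4.72%, 5.55% and 3.35% of all regions, were found in none of these regions, and no word overlapped another. The ratio of observed to expected CG pairs was 0.261 in the Lhx9 region, against a median of 0.384 over all regions, and 37.2% of regions had a lower one. It was 0.838 in the Emx2 region and 0.874 in the Cited2 region, with 82.2% and 85.3% of regions lower. These are descriptions of the letters alone. The region at the listed start of Lhx9, 6133 bases from the start site used here, was not examined.

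In XY gonads the comparison covers the time when Sry is switched on. Lhx9 encodes a LIM homeodomain protein of the early gonad (ENSMUSG00000019230.14, chromosome 1 at 138825186 to 138848577, minus strand, GRCm38). It had 929.6 and 1086 normalized counts in the XY Kdm6b-null libraries and 1699 and 2228 in the XY wild type libraries, with a null mean of 1008 ± 111 and a wild type mean of 1963 ± 374 (SD, n = 2 each). Both null libraries were lower than either wild type library. The log2 fold change was -0.95 (SE 0.15, 95% interval -1.34 to -0.57), with unadjusted p = 0.0011 and adjusted p = 0.36 by limma. In the authors' deposited table it was -0.96 (SE 0.17) with adjusted p = 3.4e-05, so Lhx9 fell by that test. With each of the 4 libraries left out in turn the value stayed between -1.15 and -0.76. Of the 16821 genes tested, 259 had a lower log2 fold change than Lhx9.

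Nr5a1 is a target that WT1, LHX9, CITED2 and SIX4 are known to share (ENSMUSG00000026751.14, chromosome 2 at 38692656 to 38714542, minus strand). It had 479.9 and 882 normalized counts in the XY Kdm6b-null libraries and 1114 and 1257 in the XY wild type libraries, with a null mean of 681 ± 284 and a wild type mean of 1185 ± 101 (SD, n = 2 each). The groups did not overlap, and the first null library was the lowest by far. Its log2 fold change was -0.86 (SE 0.28, 95% interval -1.56 to -0.16), with unadjusted p = 0.024 and adjusted p = 0.90 by limma. The value was -1.30 without XY Kdm6b-null replicate 2 and -0.42 without XY Kdm6b-null replicate 1. The authors' deposited table gave -0.80 with adjusted p = 0.28.

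Gata4, the zinc finger factor without which the genital ridge does not thicken (ENSMUSG00000021944.15, chromosome 14 at 63198922 to 63271692, minus strand), had 1113 and 1599.5 normalized counts in the XY Kdm6b-null libraries and 1730.2 and 2632 in the XY wild type libraries, with a null mean of 1356 ± 344 and a wild type mean of 2181 ± 638 (SD, n = 2 each). The groups were separate, with a small gap between the higher null and the lower wild type library. By limma the change was -0.68 on the log2 scale (SE 0.25, 95% interval -1.30 to -0.05), with unadjusted p = 0.039 and limma adjusted p = 0.97. It ranged from -0.98 without XY wild type replicate 1 to -0.37 without XY wild type replicate 2, and was -0.94 without XY Kdm6b-null replicate 2 and -0.42 without XY Kdm6b-null replicate 1. The authors' deposited table gave -0.69 with adjusted p = 0.36. Zfpm2, whose product binds GATA4 (ENSMUSG00000022306.8, chromosome 15 at 40655042 to 41104592, plus strand), had 684 and 759 normalized counts in the XY Kdm6b-null libraries and 652 and 850.4 in the XY wild type libraries. Both null values lay between the wild type values, and the 95% interval of its log2 fold change, -0.42 to 0.32, holds 0.

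Wt1, which encodes a zinc finger factor of the coelomic epithelium and the supporting cells (ENSMUSG00000016458.13, chromosome 2 at 105126529 to 105173616, plus strand), had 4074 and 6297 normalized counts in the XY Kdm6b-null libraries and 5639.7 and 5538 in the XY wild type libraries. The null libraries lay on either side of the wild type pair (log2 fold change -0.14, 95% interval -0.65 to 0.36). Emx2, a homeobox gene of the coelomic epithelium and the mesonephros (ENSMUSG00000043969.4, chromosome 19 at 59458372 to 59465357, plus strand), showed the same arrangement. It had 1815 and 2987 normalized counts in the XY Kdm6b-null libraries and 2515 and 2810.3 in the XY wild type libraries (log2 fold change -0.19, 95% interval -0.77 to 0.39). Without XY Kdm6b-null replicate 1 both values were positive, at 0.17 for Wt1 and 0.17 for Emx2. Cited2, the transcriptional coactivator (ENSMUSG00000039910.9, chromosome 10 at 17723228 to 17725673, plus strand), had 1269 and 1345 normalized counts in the XY Kdm6b-null libraries and 1135 and 1329.9 in the XY wild type libraries. Its log2 fold change of 0.09 was the most closely bounded, with a 95% interval from -0.17 to 0.34. Six4, a homeobox gene (ENSMUSG00000034460.9, chromosome 12 at 73099609 to 73113456, minus strand), had 491 and 427 normalized counts in the XY Kdm6b-null libraries and 437 and 392 in the XY wild type libraries (log2 fold change 0.15, 95% interval -0.17 to 0.46). Both factors overlapped between the genotypes.

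Set against all genes, 3 of the 8 factors had null libraries below both wild type libraries in XY gonads, where 16.3% of all genes tested did, and 0 of 8 had them above, where 16.6% did. An unadjusted limma p under 0.05 was reached by 3 of 8, against 4.96% of all genes. In either direction, groups did not overlap for 32.9% of all genes. The edgeR test on the recovered reads also called 0 of 8, as limma did, and both tools called 0% of all genes. The authors' deposited table called 1 of the 8, against 0.402% of its genes, and that 1 was lower, as were 0.279% of its genes, with 0.123% higher. The median log2 fold change of the 8 was -0.17, against -0.00013 over all genes tested.

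The first XY Kdm6b-null library stood below the second for 7 of the 8 factors, all but Six4. Relative to the XY wild type mean, Nr5a1 was at -1.30 in the first and -0.42 in the second on the log2 scale, Gata4 at -0.94 and -0.42, Emx2 at -0.55 and 0.17, Wt1 at -0.46 and 0.17, and Lhx9 at -1.06 and -0.84. Lhx9 was thus the least divided of these. Marker lists of other cell types and tissues also differed between libraries. The 8 erythroid markers summed to 70245 normalized counts in the first XY Kdm6b-null library and 213671 in the second, and to 61237 and 104810 in the XY wild type libraries, with 8 of 8 higher by their mean log2 values. The 9 mesonephros and duct markers summed to 3423 and 4640.1 in the XY Kdm6b-null libraries and 3914 and 3674 in the XY wild type libraries, with 6 of 9 higher. The 10 germ cell markers summed to 4288 and 2731 in the XY Kdm6b-null libraries and 2410 and 2910 in the XY wild type libraries, with 9 of 10 higher. Endothelial markers were lower in 7 of 8 (median -0.23), with sums of 14693 and 13420 in the XY Kdm6b-null libraries and 13989 and 18590 in the XY wild type libraries. Macrophage markers were higher in 5 of 7 (median 0.44), and the authors' deposited table called 1 of them, Csf1r, as higher, against 0.123% of its genes. Markers of the coelomic epithelium, from which the gonad arises, were higher in 6 of 8 (median 0.12), with sums of 10281 and 14804 in the XY Kdm6b-null libraries and 13248 and 10004 in the XY wild type libraries. Neural crest and neuron markers were lower in 6 of 8 (median -0.10), and 3 of 5 adrenal cortex markers were tested, all higher (median 0.10). Of all these markers only Cyp21a1 was at 0, in XY wild type replicate 2. Their part in the results was not tested, and in whole gonads fewer cells of a type and less RNA per cell cannot be told apart.

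**Figure D2:**
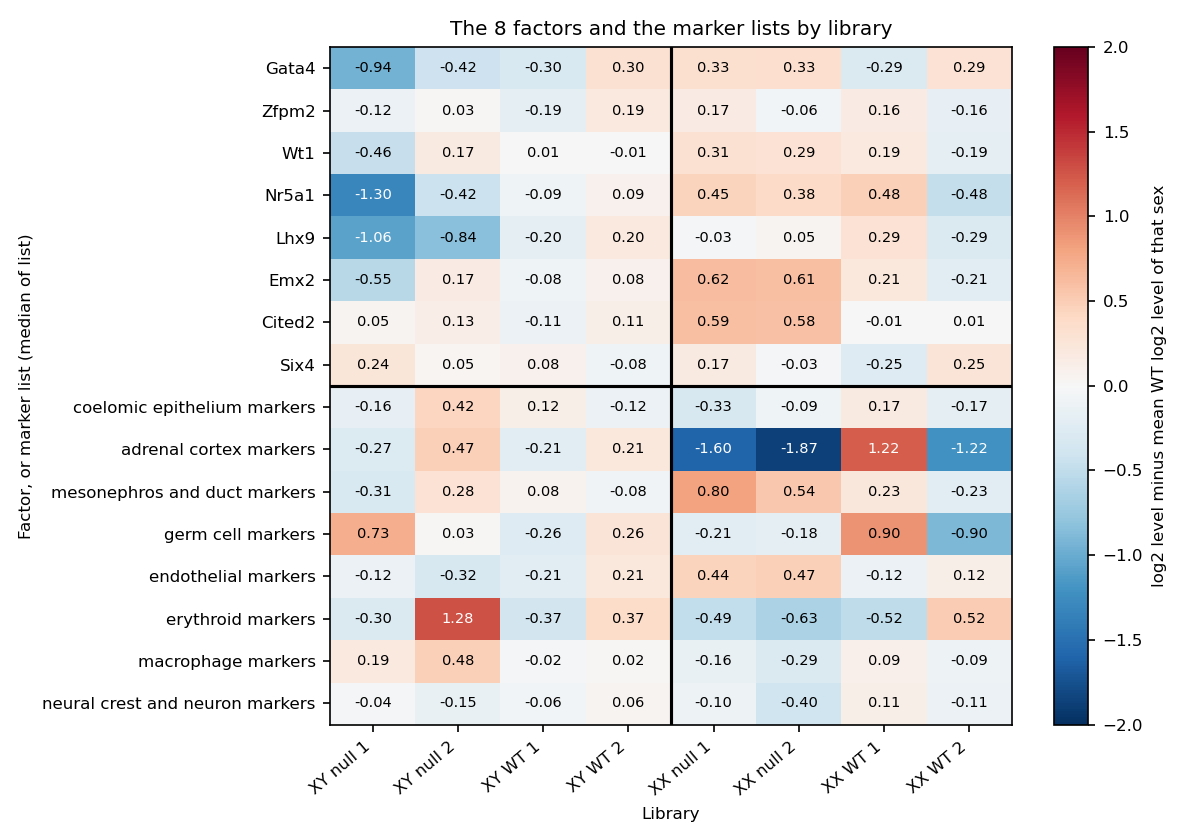
Log2 level of each factor, and median log2 level of each marker list, in each library (columns) relative to the mean wild type (WT) log2 level of the same sex; red is higher and blue lower. Lhx9 is at -1.06 and -0.84 in the XY Kdm6b-null libraries, whereas Wt1 and Emx2 have opposite signs there, and XX wild type replicate 1 stands out for adrenal cortex markers at 1.22. Germ cell markers also divide the XX wild type libraries, at 0.90 in replicate 1 and -0.90 in replicate 2, as do erythroid markers at -0.52 and 0.52.

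In XX gonads the same comparison was made where no Sry is present. Cited2 had 1276 and 1264 normalized counts in the XX Kdm6b-null libraries and 839 and 849.7 in the XX wild type libraries, with a null mean of 1269.7 ± 8.28 and a wild type mean of 844 ± 7.41 (SD, n = 2 each). The replicates lay close together in both groups, and the groups were far apart. The log2 fold change was 0.59 (SE 0.09, 95% interval 0.36 to 0.82), with unadjusted p = 0.0010 and adjusted p = 0.22 by limma. In the authors' deposited table Cited2 rose by 0.59 (SE 0.15), with adjusted p = 0.0086. With each XX library left out in turn the value stayed between 0.58 and 0.60, and the call depended on which was left out. Limma adjusted p was 0.97 when either null library was left out. It was 0.022 without the first wild type library, in a fit that called 3.69% of all genes, and 0.0063 without the second, in a fit that called 20.9%.

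Emx2 had 2035 and 2012 normalized counts in the XX Kdm6b-null libraries and 1534 and 1139 in the XX wild type libraries, with a null mean of 2024 ± 15.9 and a wild type mean of 1336 ± 279 (SD, n = 2 each). Both null libraries were above both wild type libraries. This gave a log2 fold change of 0.61 (SE 0.16, 95% interval 0.22 to 1.01), with unadjusted p = 0.010 and adjusted p = 0.27 by limma. In the authors' deposited table Emx2 rose by 0.60 (SE 0.19), with adjusted p = 0.048. Leaving out XX wild type replicate 1 gave 0.83 (limma adjusted p = 0.0064), and leaving out replicate 2 gave 0.40 (limma adjusted p = 0.015), in the same fits that called 3.69% and 20.9% of all genes. With either null library left out Emx2 had limma adjusted p = 0.97. Emx2os, a transcript on the opposite strand that shares 264 bases with Emx2, overlapped between the genotypes. It had 555 and 421 normalized counts in the XX Kdm6b-null libraries and 600.5 and 314 in the XX wild type libraries. The library kit marks strand, but whether the counting used strand is not known here, so reads in the shared bases may not be fully separated.

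Wt1 had 4279 and 4219 normalized counts in the XX Kdm6b-null libraries and 3952 and 3032 in the XX wild type libraries. The groups were separate, by less than the gap between the wild type libraries. Wt1 thus had a log2 fold change of 0.30 (SE 0.15, 95% interval -0.08 to 0.67), with adjusted p = 0.42 by limma. Leaving out XX wild type replicate 1 gave 0.49 (limma adjusted p = 0.022, with 3.69% of all genes called), and leaving out replicate 2 gave 0.10. With either null library left out limma adjusted p was 0.97 for Wt1. Wt1os begins 18 bases from the start of Wt1 and runs away from it on the opposite strand. It had 808 and 693 normalized counts in the XX Kdm6b-null libraries and 1191 and 624 in the XX wild type libraries. Gata4 had 1561 and 1569.9 normalized counts in the XX Kdm6b-null libraries and 1018 and 1522 in the XX wild type libraries. The second wild type library was close to both null libraries. For Gata4 this gave a log2 fold change of 0.33 (SE 0.20, 95% interval -0.17 to 0.83), with adjusted p = 0.49 by limma. Leaving out XX wild type replicate 2 gave 0.62 (limma adjusted p = 0.0051, with 20.9% of all genes called), and leaving out replicate 1 gave 0.04. Gata4 had limma adjusted p = 0.97 with either null library left out.

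Nr5a1 had 597 and 567 normalized counts in the XX Kdm6b-null libraries and 610.2 and 313 in the XX wild type libraries. The wild type libraries differed 1.95-fold from each other and enclosed both null libraries. The log2 fold change of 0.41 (SE 0.31, 95% interval -0.38 to 1.20) became 0.89 when XX wild type replicate 1 was left out (limma adjusted p = 0.014, with 3.69% of all genes called) and -0.07 when replicate 2 was. Limma adjusted p for Nr5a1 was 0.97 with either null library left out. Lhx9 had 1101 and 1167 normalized counts in the XX Kdm6b-null libraries and 1381 and 918 in the XX wild type libraries. It was likewise enclosed, with a log2 fold change of 0.01 (95% interval -0.50 to 0.52) that became 0.30 when XX wild type replicate 1 was left out and -0.28 when replicate 2 was. Zfpm2 had 730.4 and 624 normalized counts in the XX Kdm6b-null libraries and 724 and 582 in the XX wild type libraries. Six4 had 449 and 391 normalized counts in the XX Kdm6b-null libraries and 334 and 475 in the XX wild type libraries. Both overlapped between the genotypes, with log2 fold changes of 0.06 (95% interval -0.33 to 0.45) for Zfpm2 and 0.07 (-0.43 to 0.58) for Six4.

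**Figure D3:**
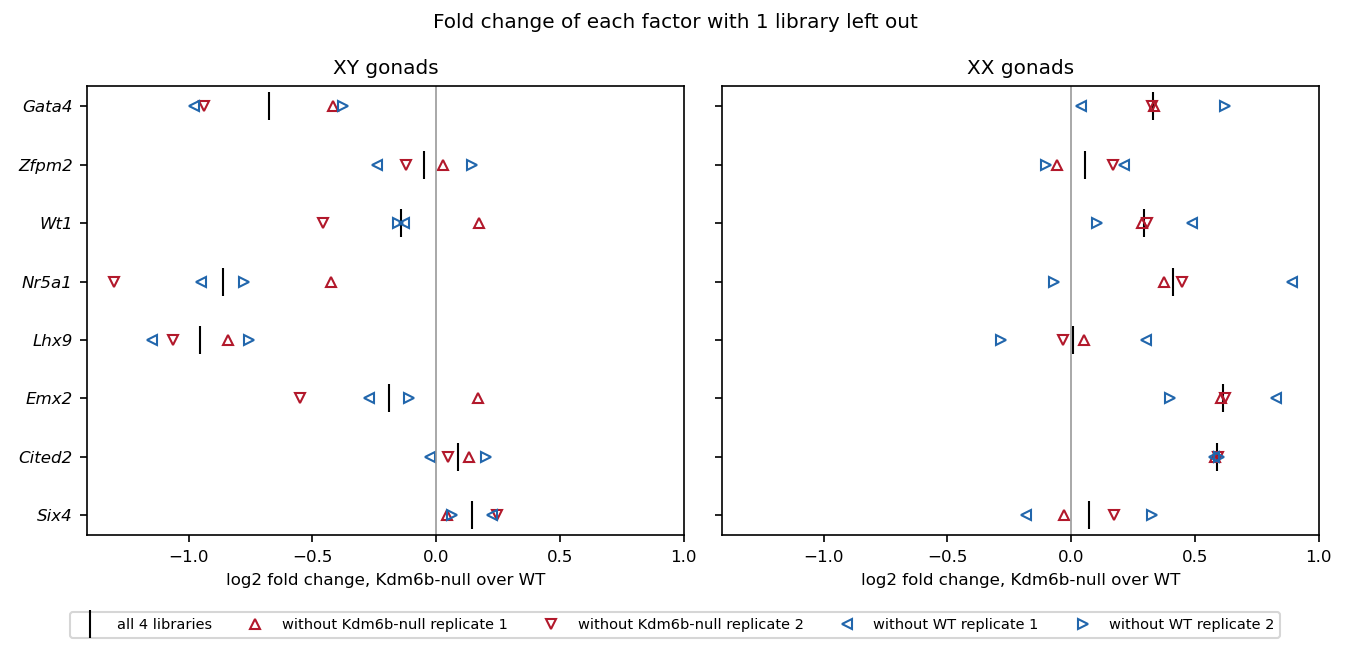
Log2 fold change (horizontal axis, Kdm6b-null over wild type, WT) of each factor with all 4 libraries of a sex (black bar) and with 1 library left out (open triangles). Lhx9 stays negative throughout in XY gonads and Cited2 stays near 0.59 in XX gonads, whereas Nr5a1 in XX gonads runs from -0.07 to 0.89.

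Over the 8 factors, 4 had XX null libraries above both wild type libraries, where 27% of all genes tested did, and 0 had them below, where 22.5% did. All 8 log2 fold changes were positive, against 50.1% of all genes, but with each library scaled to the same total Zfpm2 (-0.0072) and Lhx9 (-0.055) were negative, and Lhx9 was also negative with quantile normalization and by edgeR. The median was 0.31, against 0.00068 over all genes. An unadjusted limma p under 0.05 was reached by 2 of 8, against 14% of all genes. Limma and edgeR each called 0 of 8 and 0% of all genes, and the authors' deposited table called 2 of 8, against 2.77% of its genes. Both were higher, as were 1.95% of its genes, with 0.823% lower, and groups failed to overlap in either direction for 49.5% of all genes tested.

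Markers of the adrenal cortex, which also expresses Nr5a1, set XX wild type replicate 1 apart from every other library. Cyp11b1, the adrenal enzyme that makes corticosterone, had 1.99 and 1.01 normalized counts in the XX Kdm6b-null libraries and 417 and 7.08 in the XX wild type libraries. Cyp21a1, the enzyme one step before it, had 1.00 and 1.01 in the XX Kdm6b-null libraries and 189 and 4.05 in the XX wild type libraries. In XY libraries Cyp11b1 was at 10.7 and 1.03 in Kdm6b-null and 4.95 and 1.99 in wild type. The 5 adrenal cortex markers summed to 177 and 205 normalized counts in the XX Kdm6b-null libraries and 821 and 108 in the XX wild type libraries, with 4 of 5 lower in the null and none at 0. The mesonephros and duct markers, from the tissue beside the gonad that also expresses Emx2 and Wt1, summed to 3617 and 3056 in the XX Kdm6b-null libraries and 3268 and 2257 in the XX wild type libraries, with 8 of 9 higher in the null and none at 0. Erythroid markers were lower in 8 of 8, with sums of 122216 and 115964 in the XX Kdm6b-null libraries and 188095 and 247495 in the XX wild type libraries. Endothelial markers were higher in 8 of 8, with sums of 16161 and 15851 in the XX Kdm6b-null libraries and 10864 and 12066 in the XX wild type libraries. Coelomic epithelium markers were lower in 6 of 8 (median -0.21), with sums of 10818 and 11113 in the XX Kdm6b-null libraries and 12276 and 10205 in the XX wild type libraries. Macrophage markers were lower in 6 of 7 (median -0.27), and neural crest and neuron markers in 7 of 8 (median -0.26). The authors' deposited table called as higher 2 endothelial markers, Cdh5 and Tie1, and 1 germ cell marker, Kit, against 1.95% of its genes. It called as lower 3 erythroid markers, Hbb-y, Hba-a1 and Alas2, 2 adrenal cortex markers, Cyp21a1 and Cyp11b1, and 1 coelomic epithelium marker, Upk1b, against 0.823% of its genes. Germ cell markers summed to 3334 and 2927 in the XX Kdm6b-null libraries and 2869.8 and 2053 in the XX wild type libraries. By log2 fold change, however, 4 of 10 were higher and 6 lower (median -0.23), so the sums do not stand for most of the list. These markers also divided the XX wild type libraries, with a median of 0.90 in replicate 1 and -0.90 in replicate 2 relative to the wild type mean log2 level. The part of these markers in the values of the 8 factors was not tested.

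Whether Kdm6b loss acted differently on the factors in XY and XX gonads was tested as the XY effect minus the XX effect, so that a constant factor between both tables drops out. The difference was negative for 7 of the 8 factors, all but Six4, against 51.7% of all genes, and its median was -0.65, against -0.01 over all genes. Marker lists had differences too. Endothelial markers had negative differences in 8 of 8 (median -0.77) and mesonephros and duct markers in 8 of 9 (median -0.51), while erythroid markers had positive ones in 8 of 8 (median 1.17). Their part in the differences of the 8 factors was not tested. The difference was -1.27 (SE 0.49, 95% interval -2.41 to -0.14) for Nr5a1, -1.01 (SE 0.37) for Gata4, -0.96 (SE 0.29) for Lhx9, -0.81 (SE 0.32) for Emx2 and -0.50 (SE 0.14) for Cited2. For these 5 the unadjusted limma p was under 0.05, where 8.35% of all genes reached that. Which factors reached it depended on the fit. Without a variance trend the unadjusted limma p was 0.059 for Gata4, 0.066 for Nr5a1 and 0.078 for Emx2. By edgeR it was 0.054 for Nr5a1 and 0.059 for Emx2. Lhx9 and Cited2 stayed under 0.05 in both. None of the 8 was called after adjustment, with limma adjusted p of 0.57 to 0.95, and 0% of all genes were. The difference was -0.44 (95% interval -1.10 to 0.22) for Wt1, -0.11 (-0.65 to 0.44) for Zfpm2 and 0.07 (-0.52 to 0.66) for Six4. With each of the 8 libraries left out in turn, the differences of Nr5a1, Gata4, Lhx9, Emx2, Cited2 and Wt1 stayed negative, and that of Nr5a1 ranged from -1.76 to -0.79.

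**Figure D4:**
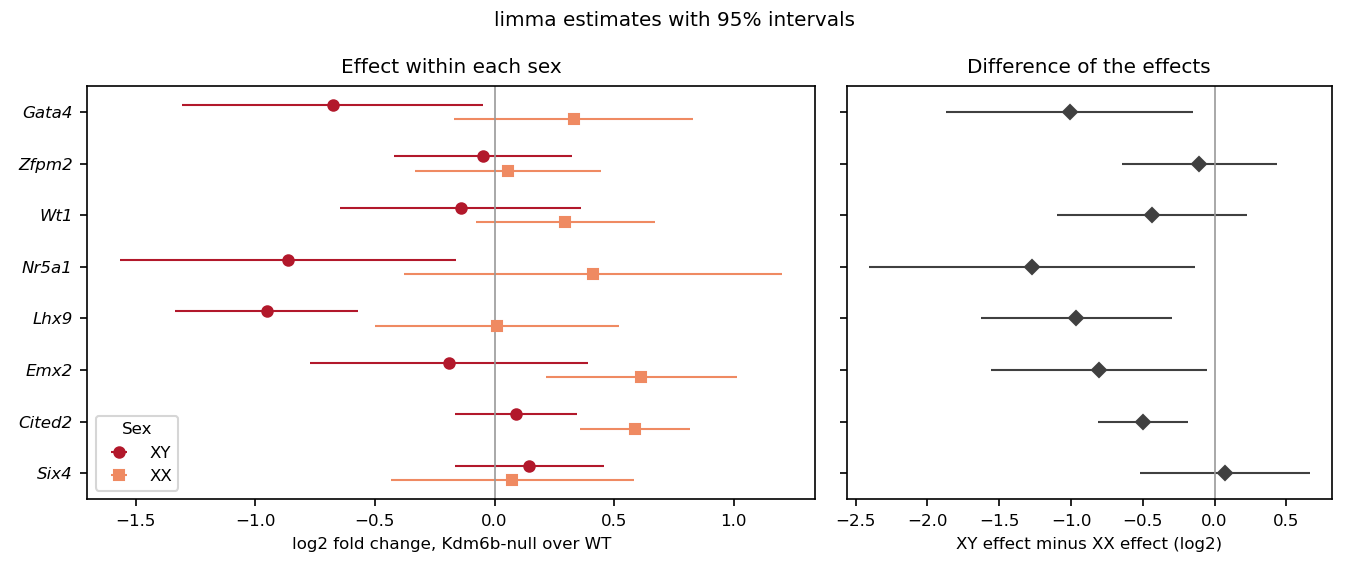
Left, log2 fold change of Kdm6b-null over wild type (WT) for each factor in XY (circles) and XX (squares) gonads; right, the XY effect minus the XX effect; bars are 95% limma intervals. Lhx9 is lowest in XY gonads at -0.95, Emx2 and Cited2 are highest in XX gonads at 0.61 and 0.59, and the intervals of the difference leave out 0 for Gata4, Nr5a1, Lhx9, Emx2 and Cited2 before any adjustment.

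To compare levels between the factors, mean normalized counts were divided by exon length in kilobases (GENCODE M21, GRCm38). In XY gonads Wt1 was first, at 837 normalized counts per kilobase in Kdm6b-null and 902 in wild type, and Emx2 second at 799.9 and 887. These 2 did not differ beyond their spread in either XY group. Six4 was last in all 4 groups, between 37.3 and 42.3 per kilobase, and Zfpm2 next to last, between 68.4 and 78.8. The middle of the order differed by group. In XY Kdm6b-null gonads it ran Cited2 at 532, Gata4 at 347, Nr5a1 at 161 and Lhx9 at 106 per kilobase, where Nr5a1 and Lhx9 did not differ beyond their spread. In XY wild type gonads it ran Gata4 at 559, Cited2 at 502, Nr5a1 at 279.5 and Lhx9 at 207, where Gata4 and Cited2 did not differ beyond theirs. In XX Kdm6b-null gonads the order was that of XY Kdm6b-null gonads, each factor above the next in both libraries, with Wt1 at 686 and Emx2 at 674. In XX wild type gonads Lhx9 at 121 stood before Nr5a1 at 109, and neither those 2, nor Wt1 and Emx2, nor Cited2 and Gata4, nor Nr5a1 and Zfpm2 differed beyond their spread. The annotation of the counting is not given, and the listed spans of Zfpm2 and Cited2 differ from those of GENCODE M21, so their lengths are approximate.

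Genes known as targets of the 8 factors were compared next. Of 15 such genes tested in XY gonads, 12 had negative log2 fold changes and 3 positive, with a median of -0.39, against -0.00013 over all genes. In 7 of the 15 both null libraries were below both wild type libraries, against 16.3% of all genes. Limma called 0 of the 15. The authors' deposited table called 1, against 0.402% of its genes. It was Kitl, the ligand of the receptor KIT on germ cells. Kitl had 1872 and 2021 normalized counts in the XY Kdm6b-null libraries and 2557 and 2811 in the XY wild type libraries (-0.46 on the log2 scale, adjusted p = 0.039, both from the authors' deposited table). Sry had a log2 fold change of -2.45 (SE 0.55) with adjusted p = 0.69 by limma. In the authors' deposited table of DESeq2 results it was -2.35 (SE 0.66) with adjusted p = 0.084, which is not a call. Nr0b1, the X-linked nuclear receptor that NR5A1 activates, had 78.0 and 113 normalized counts in the XY Kdm6b-null libraries and 163 and 175 in the XY wild type libraries (-0.84, limma adjusted p = 0.84). Inha, an inhibin subunit gene under NR5A1 and GATA4, had 204 and 215 in the XY Kdm6b-null libraries and 298 and 336 in the XY wild type libraries (-0.59, limma adjusted p = 0.70). Sox9, the supporting cell factor that SRY and NR5A1 switch on, had 1021 and 495 in the XY Kdm6b-null libraries and 910.1 and 767 in the XY wild type libraries, which overlap.

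In XX gonads 14 of the 15 targets were tested, since Sry was at 0, and 6 had positive and 8 negative log2 fold changes (median -0.16, against 0.00068 over all genes). Limma called 0, and the authors' deposited table called 1 of the 13 it gives an adjusted p, against 2.77% of its genes. It was the growth factor receptor gene Egfr, which is raised in mouse gonads that lack Emx2. Egfr had 384 and 466 normalized counts in the XX Kdm6b-null libraries and 1075 and 669.6 in the XX wild type libraries (-1.04 on the log2 scale, adjusted p = 0.0078, both from the authors' deposited table). Sox9 had 923 and 828 in the XX Kdm6b-null libraries and 515 and 769 in the XX wild type libraries (0.47, limma adjusted p = 0.39). Nr0b1 was at 0.35 and Inha at -0.34 on the log2 scale, and neither was called. The negative targets include the steroidogenic genes Cyp11a1 (-1.83, SE 1.34), Star (-0.63, SE 0.81) and Hsd3b1 (-2.84, SE 1.49), by the authors' deposited table. The tested targets summed to 14967 normalized counts in XX wild type replicate 1, which adrenal cortex markers set apart, and 11600 in replicate 2. The part of adrenal tissue in the target values was not tested. For the difference between the sexes the smallest p-values among targets belonged to Kitl (-0.55), Sry (-2.45), Nr0b1 (-1.20) and Dmrt1, a male-promoting factor (-0.93). Their limma adjusted p was 0.57 to 0.60. Sry was at 0 in every XX library, so its value is the XY effect alone. Those zeros also enter the variance behind its p-value, which therefore does not measure a difference between the sexes.

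Other genes needed for the gonad to form or for Sry to be switched on were divided in XY gonads, with 8 of 14 higher and 6 lower, a median of 0.07 and 0 called by limma or in the authors' deposited table. Among the smallest p-values were those of Gadd45g, a stress adaptor upstream of Sry (log2 fold change -0.43), Osr1, a factor of early urogenital mesenchyme (0.38), and Numb, an inhibitor of Notch signalling (-0.14). In XX gonads 11 of the 14 were higher and 3 lower, with a median of 0.18. Limma called 0, and the authors' deposited table called 2 as higher, against 1.95% of its genes. Map3k4, the kinase that GADD45G activates, had 2238 and 2328 normalized counts in the XX Kdm6b-null libraries and 1426 and 1647 in the XX wild type libraries (0.57, adjusted p = 0.010 in the authors' deposited table). Gata6, the relative that shares work with Gata4 in the gonad, had 1942 and 1991 in the XX Kdm6b-null libraries and 1283 and 1254 in the XX wild type libraries (0.63, adjusted p = 0.00087 in the authors' deposited table). The difference between the sexes was -0.52 for Map3k4, -0.64 for Gata6, -0.38 for Numb and 0.85 for Osr1, with limma adjusted p of 0.57 to 0.59.

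Family relatives of the 8 factors numbered 14, of which 13 were tested, Emx1 being too low. In XY gonads 9 were higher and 4 lower (median 0.11), with 0 called by limma or in the authors' deposited table. Among the smallest p-values were those of Gata5 (0.37), Six5 (0.16) and Cited1 (-0.54). In XX gonads 6 were higher and 7 lower (median -0.09). The authors' deposited table called 2 of the 13 as higher, against 1.95% of its genes. These were Gata6 and Zfpm1, the FOG relative of Zfpm2, which had 1330.3 and 1534 normalized counts in the XX Kdm6b-null libraries and 736 and 952 in the XX wild type libraries (0.76, adjusted p = 0.0068 in the authors' deposited table). For the difference between the sexes, the smallest p-values after Gata6 were those of Gata3 (-0.68) and Zfpm1 (-0.59), with limma adjusted p of 0.61 and 0.64. Gata6 and Nr0b1 each stand in 2 of these lists.

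Genes with patterns most like those of Lhx9, Nr5a1 and Gata4 were found by the root mean square difference of log2 values, each centred on its sex, over the 8 libraries and 11158 named genes with a mean of at least 100 in both sexes. Closest to Lhx9 were Abhd3, at a difference of 0.15, Atp1b2 (0.17), Tulp2 (0.17), Etnk2 (0.18) and Car3 (0.18), against a median of 0.41 over all genes compared. Closest to Nr5a1 were Abhd3 (0.20), H2-D1 (0.21), Tfap2b (0.22), Sh2d4a (0.23) and Rpl38 (0.24), against a median of 0.49. Lhx9 was ninth in that order for Nr5a1, at 0.25, Emx2 came in place 20 and Wt1 in place 35. In the order for Lhx9, Nr5a1 came in place 48, Wt1 in place 766 and Emx2 in place 2247. Closest to Gata4 were Msx1 (0.10), Cebpd (0.16), Ncoa7 (0.16), Pkp2 (0.17) and Gk5 (0.17), against a median of 0.37, and no other of the 8 factors was nearer to it than place 3071. A gene that did not vary at all would lie at 0.38 from Lhx9, 0.47 from Nr5a1 and 0.36 from Gata4, close to these medians. Distant places in the orders therefore say little. The measure also takes in differences between replicates of a group. The libraries share their scaling within a sex, and a close pattern over 8 libraries is a description only.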

How the data were processed

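Per the labels' protocols, polyadenylated RNA was sequenced with paired reads of 100 bases (DNBSEQ-G400). DESeq2 2.11.40.8, featureCounts 2.0.8, STAR 2.7.11, cutadapt 4.9 and the build GRCm38 (mm10) stand in the submitters' processing notes. What the authors deposited as signal are normalized counts of genes, each a count divided by 1 size factor per library, with the sexes in separate tables, per the file headers. The authors' deposited DESeq2 tables give log2 fold changes, p-values and a Wald score, which was not used. The XX table has no header, and its columns were read in the order of the XY table.

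All nonzero values were whole multiples of 1 step per library within 1e-06 of a step, taken as 1 count. 3 counts, the limit that a value of 0 allows for counting error, were worth 2.91 to 3.09 normalized counts. Values of log2(normalized count + 1) were tested with limma 3.58.1 (R 4.3.3), using a variance trend, genotype as the only term and Benjamini-Hochberg adjustment at 0.05. Such log2 fold changes understate changes of low genes. Genes with a mean of at least 10 were kept: 16821 in XY, 17028 in XX and 17282, in either sex, for the difference. Residual degrees of freedom were 2, 2 and 4. edgeR 4.0.16 (quasi-likelihood, TMM) was run on the recovered counts as an alternative chosen after seeing the data. The fits were run on simulated data with known changes. The check set a limit on the error of the fold changes. It set a limit on recovered changes for edgeR only, so it does not show how many changes limma would call. Alternatives varied the pseudocount, filter, scaling, variance trend, libraries and a replicate block. From each related list, genes past a test were named, otherwise up to 4 with the smallest p, and Sry, Sox9, Nr0b1 and Inha always; some genes that this rule names are not reported here. The members and lists were chosen with earlier results of these data known. Start-site sequences are from RefSeq (GRCm38.p6).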

Additional observations from a re-analysis of the deposited data

How the results depend on the processing

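All 8 factors were far above the limit that a value of 0 allows. In XY gonads limma called 0 of all genes, 23 with the replicate number as a block, 1 without a variance trend and 0 to 2 with 1 library left out. The block also called 1 of the 8 factors, Lhx9 (adjusted p = 0.035), against 0 with 1 library left out. The labels give the number no shared litter or day, and same-numbered libraries deviated together in XY (correlation 0.24 across genes) but not in XX (-0.06), so the block is no paired design. In XX gonads limma called 0 genes, 2 with the block, 10 with all 8 libraries in 1 fit, and 0 to 3550 with 1 library left out, where 0 to 4 of the factors were called. Of these, 621 genes came from leaving out the first XX wild type library and 3550 from leaving out the second. For the difference it called 0 genes, and 0 to 44 with 1 library left out, 44 of them without XX wild type replicate 2. The lone library of a group was assumed to vary like the others.

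Some signs turned. In XX gonads Zfpm2 was at -0.0072 with each library scaled to the same total, and Lhx9 was at -0.055 there, at -0.075 with quantile normalization and at -0.042 by edgeR. With 1 library left out, XY values ran from -0.24 to 0.14 for Zfpm2, -0.46 to 0.17 for Wt1, -0.55 to 0.17 for Emx2 and -0.025 to 0.20 for Cited2. XX values ran from -0.10 to 0.22 for Zfpm2, -0.18 to 0.33 for Six4, -0.28 to 0.30 for Lhx9 and -0.069 to 0.89 for Nr5a1. The difference ran from -0.30 to 0.086 for Zfpm2 and -0.18 to 0.33 for Six4. The causes were not tested. Pseudocounts of 0.5 and 5, no filter and a minimum mean of 50 changed no call and no sign among the 8 factors.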

Other observations

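Ratios between factors within a library do not depend on how the library was scaled, and they were chosen after the values were seen. Lhx9 per Wt1 was 0.228 and 0.172 in the XY Kdm6b-null libraries and 0.301 and 0.402 in the XY wild type libraries. It was 0.257 and 0.277 in the XX Kdm6b-null libraries and 0.349 and 0.303 in the XX wild type libraries. The null libraries were thus below the wild type libraries in both sexes, although Lhx9 itself overlapped between the genotypes in XX gonads. Wt1, the denominator, was higher in both XX null libraries than in either XX wild type library. Zfpm2 per Wt1 was also lower in the XX null, at 0.171 and 0.148, against 0.183 and 0.192 in the XX wild type libraries. Not every ratio computed is given here, and no share over all gene pairs was computed.

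Nr5a1 per Wt1 was 0.118 and 0.140 in the XY Kdm6b-null libraries and 0.198 and 0.227 in the XY wild type libraries. In XX it overlapped, at 0.139 and 0.134 in the Kdm6b-null libraries and 0.154 and 0.103 in the wild type libraries. Gata4 per Zfpm2, the factor over its cofactor, was 1.63 and 2.11 in the XY Kdm6b-null libraries and 2.65 and 3.09 in the XY wild type libraries. In XX this ratio was 2.14 and 2.51 in the Kdm6b-null libraries and 1.41 and 2.62 in the wild type libraries, which overlap. Emx2 per Wt1 overlapped in XY gonads and was higher in the XX null, at 0.476 and 0.477 in the Kdm6b-null libraries and 0.388 and 0.376 in the wild type libraries.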
